A study of Mus musculus with 12 samples.

Results

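The intracellular serpins of clade B described here are 7 mouse genes: Serpinb9b, Serpinb9, Serpinb2, Serpinb6a, Serpinb6b, Serpinb8 and Serpinb1a. They were selected by symbol from the 55281 annotated genes in the table of Salmon gene counts, 1 row per gene, because Serpinb9b ranked among the largest rises in these data. In the comparison of genotypes on control diet, taken here as the one that chose it, Serpinb9b ranked 7 of the 18427 genes tested by size of rise. Values of the 7 members in that comparison are therefore given as a description, without a p. All 7 members passed the filter on low counts, and the table held 28 clade B genes in all, of which 14 passed.

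RNA was sequenced from gonadal white adipose tissue (GWAT) of male mice aged 22 to 24 weeks. HoipA-KO mice carried the alleles Hoip fl/fl AdipoQ.Cre+, in which Cre driven by the adiponectin promoter deletes Hoip (Rnf31, the catalytic subunit of the linear ubiquitin ligase complex) in mature adipocytes only. WT mice were Hoip fl/fl AdipoQ.Cre-, so that every group carried the floxed Hoip alleles. From 6 weeks of age, mice of each genotype received a control diet (CD, 14% fat by the labels, though the methods print a slightly different fat content) or a high-fat diet (HFD, 60% fat) for 16 weeks. This gave 4 groups of 3 libraries, and each library pooled the RNA of 3 mice.

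The 12 libraries held between 30513446 and 60540225 counts. Rnf31 itself did not separate the genotypes in whole tissue, with 12.8 to 21.2 CPM in the WT and 17.8 to 22.5 CPM in the HoipA-KO libraries, so its level gives no check of the labels. WT CD libraries resembled each other least, with Pearson r of 0.785 to 0.907 across genes between pairs, against 0.971 to 0.993 within the other groups. That library, WT CD replicate 3, had the lower values (0.785 and 0.794) and was left out of the fits, and results over the full set are given where they change the call of a member or a count of a list stated for that comparison. Its absence follows the deposited comparisons. WT CD replicate 2 also stood apart in the summed level of 8 epididymal epithelium markers, at 14990 CPM, while HoipA-KO HFD replicate 1 held 1312 CPM and the other 10 libraries at most 111 CPM.

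Serpins are protease inhibitors that present a reactive loop as bait. When a protease cuts the loop, it stays bound to the serpin and is inactivated for good. Clade B members lack a classical secretion signal and act mostly inside cells, where they guard against the cell's own granule and lysosomal proteases or those delivered by killer lymphocytes. In adipose tissue, leukocytes are a well-known source of these transcripts. In bulk tissue, fewer cells of a type and less RNA per cell cannot be told apart.

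The members lay in 2 gene clusters of the GRCm38 build, by GENCODE annotation. Serpinb1a (chr13:32842092-32851185, minus strand), Serpinb6b (chr13:32965209-32979067, plus), Serpinb9 (chr13:33003250-33017957, plus), Serpinb9b (chr13:33027416-33041884, plus) and Serpinb6a (chr13:33917918-34002794, minus) formed the chromosome 13 cluster. Serpinb2 (chr1:107511423-107535478, plus) and Serpinb8 (chr1:107590006-107610484, plus) lay on chromosome 1. All are protein-coding genes. Serpinb9b and Serpinb9 are neighbours whose coding sequences were 86.5% identical over 1122 aligned bases, and Serpinb6a and Serpinb6b were 86.4% identical over 1131. All other pairs of members were 59.8% to 69.1% identical.

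Sequence windows of the 250 bases before the RefSeq start (GRCm38.p6) were at hand for 6 of the 7 members, as 8 windows. RefSeq and GENCODE starts differ for some members. The Serpinb9 window lies inside the GENCODE span of that gene, which begins at chr13:33003250. A window each of Serpinb6a, Serpinb2 and Serpinb6b overlaps annotated exons of its own gene, by 115, 69 and 52 bases. The windows of Serpinb9b and Serpinb9 are shown because these neighbours have like coding sequences and unlike levels in GWAT, and capitals mark the longest run of bases that both hold. That of Serpinb8 is shown because capitals mark a match to the AP-1 motif, 23 bases before the start. Each is printed 5′ to 3′ on the plus strand, at chr13:33027164-33027413, chr13:33004291-33004540 and chr1:107589756-107590005.
Serpinb9b: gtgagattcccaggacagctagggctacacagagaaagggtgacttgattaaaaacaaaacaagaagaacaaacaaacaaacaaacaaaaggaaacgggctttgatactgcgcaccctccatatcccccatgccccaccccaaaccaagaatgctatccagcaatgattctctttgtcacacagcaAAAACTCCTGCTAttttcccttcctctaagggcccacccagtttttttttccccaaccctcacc
Serpinb9: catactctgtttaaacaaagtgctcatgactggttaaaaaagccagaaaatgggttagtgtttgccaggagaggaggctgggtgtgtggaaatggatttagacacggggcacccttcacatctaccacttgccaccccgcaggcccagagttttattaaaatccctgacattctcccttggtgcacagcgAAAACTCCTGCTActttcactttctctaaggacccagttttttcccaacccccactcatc
Serpinb8: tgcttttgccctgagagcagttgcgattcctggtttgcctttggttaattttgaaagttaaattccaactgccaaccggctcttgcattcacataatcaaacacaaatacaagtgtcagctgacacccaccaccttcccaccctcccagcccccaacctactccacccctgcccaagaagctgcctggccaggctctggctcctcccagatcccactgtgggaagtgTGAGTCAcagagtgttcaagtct
Over 225 aligned bases the first 2 windows were 68.4% identical, and the shared run of 13 bases began 64 bases before the start of Serpinb9b and 60 bases before that of Serpinb9. Searched on both strands, the AP-1 motif TGANTCA was in 3 of the 8 member windows, both of Serpinb2 (which overlap and share the site) and that of Serpinb8, and in 6.75% of all 32851 windows. The NF-kB motif GGGNNNNNCC was in 2 of the 8, those of Serpinb9b and Serpinb8, and in 45.8% of all windows. The PU.1 motif AGGAAGT was in none of the 8 and in 7.69% of all windows. In the member windows no match overlapped a match of another motif, and a match describes letters, not a bound site.

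Levels below are CPM, counts scaled to a common library total and adjusted by the trimmed mean of M-values (TMM) over the 12 libraries, listed as replicates 1, 2 and 3. Fold changes with their standard errors (SE) come from an edgeR quasi-likelihood fit over 11 libraries, and "called" means a Benjamini-Hochberg adjusted p under 0.05 over all genes tested. Where nothing says that pools came from separate cages or litters, p-values measure the spread between these pools.

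Serpinb9b, a paralogue of Serpinb9 and a known granzyme M inhibitor, showed the widest range of levels among the 7. In WT CD libraries it read 0.317, 0.217 and 0.334 CPM, in WT HFD 1.46, 4.27 and 14.8, in HoipA-KO CD 99.4, 219 and 90.7, and in HoipA-KO HFD 8.82, 126 and 7.72. WT CD lay below every other group without overlap, WT HFD lay below HoipA-KO CD, and HoipA-KO HFD overlapped both WT HFD and HoipA-KO CD. The WT means were 0.289 ± 0.0631 CPM on CD and 6.83 ± 7.01 on HFD, against 136 ± 71.5 and 47.5 ± 67.9 for HoipA-KO (SD, n = 3 each). The fitted log2 difference between HoipA-KO and WT was 9.05 (SE 1.94) on CD and 2.82 (SE 1.15) on HFD, the latter with an edgeR adjusted p of 0.129.

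The 3 HoipA-KO HFD libraries did not form one level of Serpinb9b. Replicate 2 held 5672 counts of the gene, whereas replicates 1 and 3 held 475 and 434, within the range of the WT HFD libraries (44 to 705 counts). Without HoipA-KO HFD replicate 2, the genotype difference on HFD was 0.27 on the log2 scale (edgeR adjusted p = 0.841, within a range of 0.08 to 0.911 over the alternatives). That library also had the highest macrophage marker sum of its group, 10040 CPM against 5983 and 6347 CPM. Its part in the result was not tested.

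Serpinb9, the mouse counterpart of the human granzyme B inhibitor PI-9, ranged over fewer fold than Serpinb9b. It read 24.9, 31.2 and 15.3 CPM in WT CD, 48.5, 56.7 and 54.9 in WT HFD, 50.0, 79.8 and 37.4 in HoipA-KO CD, and 37.7, 58.6 and 31.9 in HoipA-KO HFD. WT CD was again below the other 3 groups without overlap, and these overlapped each other. HoipA-KO exceeded WT by 1.04 on the log2 scale (SE 0.352) on CD and by 0.66 without HoipA-KO CD replicate 2, while on HFD the difference was -0.30 (SE 0.304, edgeR adjusted p = 0.522).

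**Figure D1:**
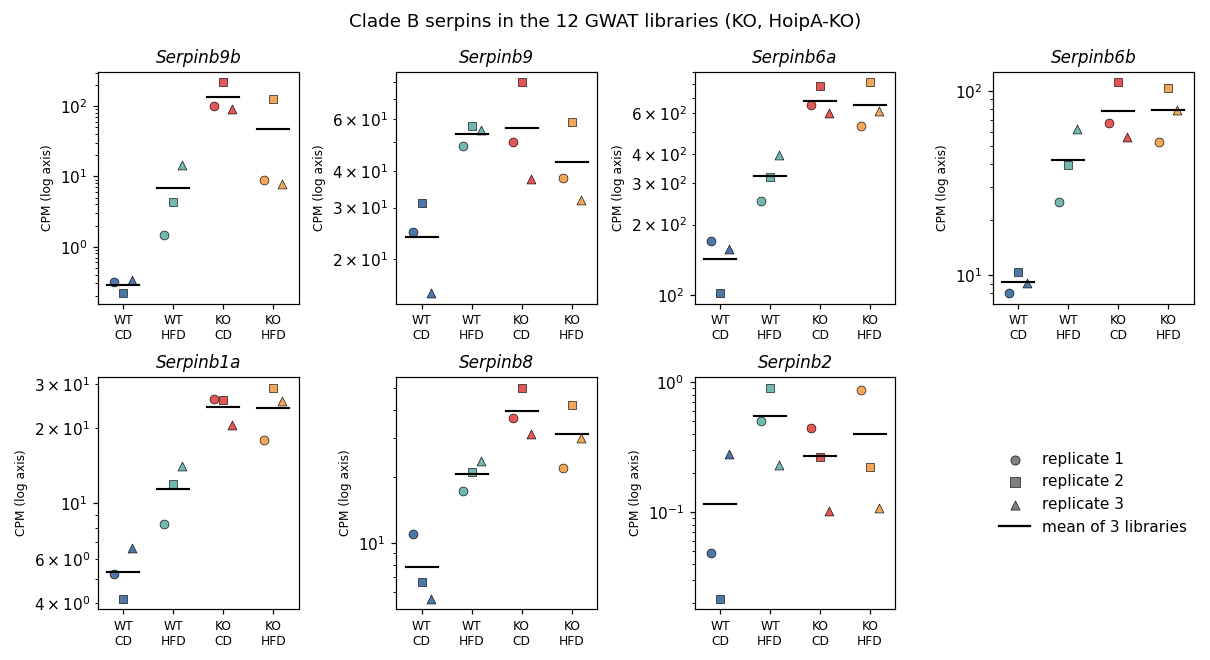
Level of each of the 7 members in CPM (log axis, a different range in each panel) in the 12 libraries, by genotype and diet group. Symbols are libraries and lines the means of 3. Serpinb9b spans 0.217 to 219 CPM, and in HoipA-KO HFD replicate 2 stands at 126 CPM above 8.82 and 7.72 CPM, while Serpinb9 stays between 15.3 and 79.8 CPM.

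The balance of the 2 neighbours shifted across the groups. As a ratio of CPM in the same library, Serpinb9b was 0.696% to 2.18% of Serpinb9 in WT CD and 3.02% to 26.9% in WT HFD. It was 199% to 274% in HoipA-KO CD. In HoipA-KO HFD it was 23.4% and 24.2% in replicates 1 and 3 and 215% in replicate 2. Of the 3347 distinct 31-base words in Serpinb9b transcripts, 5.02% also occur in other genes and 3.91% in Serpinb9, so a small share of reads could be split between them. The annotated antisense gene Gm36099 overlaps Serpinb9b on the opposite strand.

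Serpinb6a was the most abundant member, also per length, with a mean of 125.6 CPM per kb of exons in HoipA-KO CD against 40.6 for Serpinb9b and 34.6 for Serpinb6b. Serpinb6a inhibits trypsin-like proteases and cathepsin G. Its level was 170.9, 101.5 and 156.8 CPM in WT CD, 251, 318 and 398 in WT HFD, 653, 786 and 600.4 in HoipA-KO CD, and 528, 814 and 614 in HoipA-KO HFD. The groups rose in 3 steps without overlap, from WT CD to WT HFD and then to the HoipA-KO groups, which overlapped each other. The log2 difference between genotypes was 2.37 (SE 0.331) on CD and 1.04 (SE 0.272) on HFD, the latter called by edgeR at an adjusted p of 0.0399. Genes overlapping Serpinb6a on the opposite strand are Nqo2, Ripk1 and an antisense RNA.

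Serpinb6b, described as an inhibitor of granzyme A, followed at a lower level. It read 7.99, 10.4 and 9.09 CPM in WT CD, 25.0, 39.4 and 62.3 in WT HFD, 67.2, 111.4 and 56.5 in HoipA-KO CD, and 52.9, 104.1 and 78.9 in HoipA-KO HFD. WT CD was below all other groups, which overlapped. The genotype difference was 3.14 (SE 0.496) on CD and 0.92 (SE 0.389) on HFD on the log2 scale, and the latter missed the threshold (edgeR adjusted p = 0.14).

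Serpinb1a, an inhibitor of neutrophil elastase, proteinase 3 and cathepsin G, read 5.21, 4.17 and 6.61 CPM in WT CD, 8.27, 11.96 and 14.1 in WT HFD, 26.1, 25.9 and 20.5 in HoipA-KO CD, and 17.8, 28.9 and 25.5 in HoipA-KO HFD. As for Serpinb6a, both HoipA-KO groups lay above both WT groups without overlap. HoipA-KO exceeded WT by 2.41 (SE 0.301) on CD and by 1.09 (SE 0.246) on HFD on the log2 scale, the latter with an edgeR adjusted p of 0.026. Of its 31-base words, 10.1% occur in other genes and 5.94% in Serpinb1b.

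Serpinb8, known as an inhibitor of furin, read 11.04, 6.64 and 5.62 CPM in WT CD, 17.2, 20.9 and 23.6 in WT HFD, 36.8, 50.4 and 31.04 in HoipA-KO CD, and 21.9, 41.9 and 29.9 in HoipA-KO HFD. WT CD lay below the other groups and HoipA-KO CD above WT HFD, whereas HoipA-KO HFD overlapped both of its neighbours. The log2 difference between genotypes was 2.21 (SE 0.362) on CD and 0.62 (SE 0.297) on HFD, where the edgeR adjusted p was 0.182.

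Serpinb2, the plasminogen activator inhibitor PAI-2, was close to the limit of detection in GWAT. Its rounded counts were 2, 1 and 15 in WT CD, 15, 47 and 11 in WT HFD, 22, 15 and 5 in HoipA-KO CD, and 47, 10 and 6 in HoipA-KO HFD. Every pair of groups overlapped. Summed over libraries, the ratio of HoipA-KO CD to WT CD without replicate 3 was 7.87, with a 95% exact interval of 2.51 to 39.7 for counting error only. With that library, the fitted log2 difference dropped from 2.91 to 1.16. Serpinb2 shares 11.2% of its 31-base words with the overlapping gene Serpinb10 on the same strand.

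**Figure D2:**
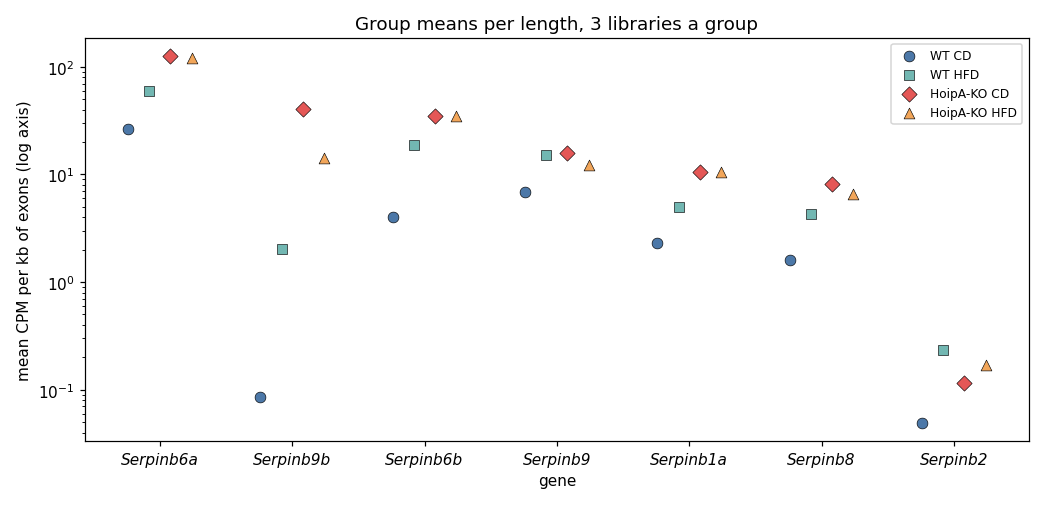
Mean CPM per kb of exons (log axis) of the 7 members in the 4 groups, 3 libraries each, ordered by the level in HoipA-KO CD. Serpinb6a is highest in every group, at 26.4 to 125.6 CPM per kb, and Serpinb2 is at 0.0495 to 0.232 CPM per kb, while Serpinb9b moves from 0.0863 in WT CD to 40.6 in HoipA-KO CD.

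Of the members, 6 of 7 were called higher in HoipA-KO than in WT on CD and none lower, where 18.9% of all genes tested were called higher and 18.8% lower. Since that contrast chose Serpinb9b, nothing is read from the count. Serpinb9 was the nearest of the 6 to the threshold and dropped out under several alternatives, such as no filter on low counts or protein-coding genes alone, which left 5. The median log2 difference of the members was 2.41, against -0.06 over all genes.

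On HFD, the comparison asked whether the genotypes also differed under a fat-rich diet. Serpinb6a and Serpinb1a, 2 of 7 members, were called higher in HoipA-KO, against a background of 4.2% of genes called higher and 7.62% lower (774 and 1405 genes, or 1279 and 1133 when scaled by library size alone). The median log2 difference of the members was 0.92, against 0.06 over all genes. Neither member was called over all 12 libraries (edgeR adjusted p = 0.0671 and 0.0634, with ranges of 0.000806 to 0.15 and 0.000333 to 0.094 over the alternatives), where 0.531% of genes were called higher. The count of 2 was 0 when WT HFD replicate 1, WT HFD replicate 2, HoipA-KO HFD replicate 2 or HoipA-KO HFD replicate 3 was dropped. Dropping HoipA-KO CD replicate 1 left Serpinb1a alone called.

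The response to diet in WT fat was upward for Serpinb6a, Serpinb6b, Serpinb8 and Serpinb1a, 4 of 7 members called higher, where 9.35% of genes were called higher and 5.47% lower (1723 and 1008 genes, or 2108 and 677 when scaled by library size alone). The log2 difference between HFD and CD was 2.22 (SE 0.474, edgeR adjusted p = 0.0166) for Serpinb6b. It was 1.30 (SE 0.288, edgeR adjusted p = 0.0188) for Serpinb1a, 1.26 (SE 0.314, edgeR adjusted p = 0.0288) for Serpinb6a and 1.23 (SE 0.347, edgeR adjusted p = 0.0429) for Serpinb8. Serpinb9 missed the threshold at 0.94 (SE 0.35, edgeR adjusted p = 0.0972), as did Serpinb2 at 3.88 (SE 1.2, edgeR adjusted p = 0.056). Serpinb9b differed by 4.70 (SE 1.68), with no p because its WT CD libraries also entered the contrast that chose it. The median over members was 1.30, against 0.00363 over all genes.

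Over all 12 libraries, Serpinb9 was called in this diet comparison as well (edgeR adjusted p = 0.0456, range 0.0353 to 0.236 over the alternatives), where 9.05% of genes were called higher. The count of 4 in the 11-library fit rested on single libraries. It fell to 0 without WT CD replicate 2 or WT HFD replicate 3 and to 1 without WT HFD replicate 2. This comparison shares its WT CD libraries with the genotype comparison on CD.

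In HoipA-KO mice, HFD did not move any member past the threshold. Here 0% of genes were called higher and 0% lower by edgeR, 415 of 18427 genes had an unadjusted p under 0.05, and DESeq2 called 7 genes. None of the 7 members had an unadjusted p under 0.05. The log2 difference between HFD and CD was -0.01 (SE 0.243) for Serpinb1a, -0.01 (SE 0.385) for Serpinb6b and -0.07 (SE 0.269) for Serpinb6a, and its sign turned for these 3 under other scalings or without single libraries. For Serpinb9b it was -1.53 (SE 1.09), and -4.08 without HoipA-KO HFD replicate 2.

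The genotype by diet interaction is the genotype difference on HFD minus that on CD, so for Serpinb9b (-6.22) it contains the contrast that chose the gene and is given as a value alone. For the other 6 members it ran from -1.32 for Serpinb1a to -3.35 for Serpinb2. The median of all 7 was -1.58, against -0.01 over all genes. None of the 6 was called by edgeR, where 0.331% of genes were called higher and 3.58% lower. All 6 had an unadjusted p under 0.05, as did 4228 of the 18427 genes tested. DESeq2 called 4 of the 6: Serpinb6a, Serpinb6b, Serpinb8 and Serpinb1a. Counted over all 7 members, Serpinb9b included, the edgeR calls varied with the setting, for example 2 without WT HFD replicate 1 and 1 under library size scaling.

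**Figure D3:**
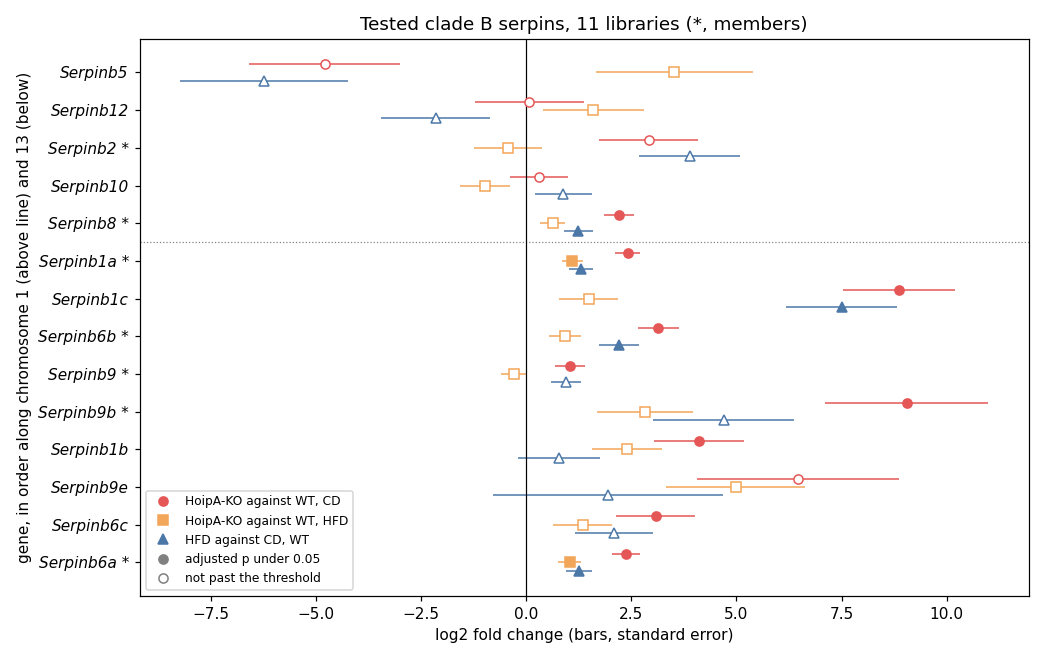
Log2 fold change with its SE for the 14 tested clade B genes, in order along chromosomes 1 and 13, in the 11-library fit. Filled symbols passed an adjusted p of 0.05 and stars mark members. The fill of members on CD is not read as a test, since that contrast chose Serpinb9b. The same holds for Serpinb9b on HFD against CD in WT. It also holds for Serpinb1c and Serpinb9e, which passed the filter through the groups where they are high. The genotype difference on CD is largest for Serpinb9b (9.05) and Serpinb1c (8.87), and on HFD only Serpinb1a and Serpinb6a are filled.

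Of the other 21 clade B genes, 7 were tested, 6 were at 0 counts in all 12 libraries and 8 had at most 15 counts in any library. On CD, Serpinb1c, Serpinb1b and Serpinb6c were called higher in HoipA-KO and none lower, where 18.9% of all genes were called higher and 18.8% lower. The median log2 difference of the 7 tested was 3.08, or 2.71 with Serpinb9e at its bound below. Serpinb1c and Serpinb9e, with at most 1 count in any WT CD library, passed the filter through the groups where they are high. Nothing is therefore read from this median or from the count of calls.

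Serpinb1c, a paralogue of Serpinb1a on chromosome 13 with a coding sequence 89.8% identical to it, was nearly silent in lean WT fat. Its counts were 0, 1 and 1 in WT CD, 18, 114 and 228 in WT HFD, 247, 525 and 227 in HoipA-KO CD, and 192, 489 and 365 in HoipA-KO HFD. Summed counts gave a ratio of HoipA-KO CD to WT CD of 561 without WT CD replicate 3, with a 95% exact interval of 101 to 22200 for counting error only. The ratio of WT HFD to WT CD was 241 (43.1 to 9560). No p is given for it, as the gene passed the filter through the groups where it is high. In HoipA-KO HFD it stood at 3.57, 10.9 and 6.49 CPM, a range that overlaps the 4.65 to 9.34 CPM of HoipA-KO CD. Reads may be split within this family, as 11.8% of Serpinb1c 31-base words occur in other genes.

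Serpinb1b read 0.0487, 0.239 and 0.167 CPM in WT CD, 0.0332, 0.231 and 0.461 in WT HFD, 2.02, 3.24 and 2.17 in HoipA-KO CD, and 0.631, 2.46 and 0.818 in HoipA-KO HFD. It was called on CD at 4.12 (SE 1.07, edgeR adjusted p = 0.0149), and diet did not move it past the threshold in WT (0.78, SE 0.982, edgeR adjusted p = 0.628). As for Serpinb9b, the highest HoipA-KO HFD library was replicate 2. Serpinb6c had at most 40 counts, and its call on CD (3.08, SE 0.94, edgeR adjusted p = 0.0286) was lost over all 12 libraries, where the difference was 0.72 (edgeR adjusted p = 0.594).

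Serpinb9e had 0 counts in all WT CD libraries and 4, 15 and 16 in HoipA-KO CD, which is at least 6.56-fold higher in the 11-library set, taking 3 counts over the group as the floor. Its difference was not called (edgeR adjusted p = 0.0626), but was over all 12 libraries (0.0371). Nothing is read from either value, as Serpinb9e passed the filter through the groups where it is high. Serpinb10 had 5 to 28 counts and was called in no comparison. Serpinb5 and Serpinb12, epithelial serpins, had 229 and 379 counts in WT CD replicate 2, the library with the highest epididymal marker sum, against at most 3 and 2 in the other WT CD libraries. Serpinb12 read 0.399 to 1.70 CPM in WT HFD, below its 2.87 to 5.69 CPM in HoipA-KO CD without overlap. In HoipA-KO HFD it read 1.54 to 4.49 CPM. Epididymal markers were at 0.230 to 6.94, 1.42 to 79.3 and 0.133 to 1312 CPM in these groups, in that order.

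The levels of Serpinb6a, Serpinb6b, Serpinb8, Serpinb1a and Serpinb9b moved with macrophage markers, and those of Serpinb9 and Serpinb2 less so. The sum of the 9 macrophage markers (Adgre1, Cd68, Csf1r, Mrc1, Lyz2, Fcgr1, Mertk, Itgam and Cd14, none at 0 in any library) was 388 to 592 CPM in WT CD, 1660 to 4976 in WT HFD, 8278 to 11720 in HoipA-KO CD and 5983 to 10040 in HoipA-KO HFD. On CD, 8 of 9 were called higher in HoipA-KO (18.9% of all genes), and 8 of 9 were called higher on HFD in WT (9.35%). On HFD, 2 of 9 were called between genotypes (4.2% of all genes higher, 7.62% lower), and 0 over all 12 libraries. There 6 had an unadjusted p under 0.05, as did 3931 of the 18074 genes tested. Their part in the serpin results was not tested.

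Across the 11 libraries, Pearson r of log2(CPM + 1) with that sum was 0.984 for Serpinb6a, 0.978 for Serpinb1a, 0.975 for Serpinb6b, 0.964 for Serpinb8 and 0.898 for Serpinb9b. It was 0.62 for Serpinb9 and 0.26 for Serpinb2. The points share libraries and group differences, so these values are descriptions. Per 1000 CPM of the macrophage marker Cd68, Serpinb9b was 10.4 to 23.7 in WT CD, 9.96 to 24.5 in WT HFD and 68.1 to 164 in HoipA-KO CD. In HoipA-KO HFD it was 12.4, 90.6 and 7.25. The 4 libraries highest in Serpinb9b were therefore also the highest relative to Cd68.

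**Figure D4:**
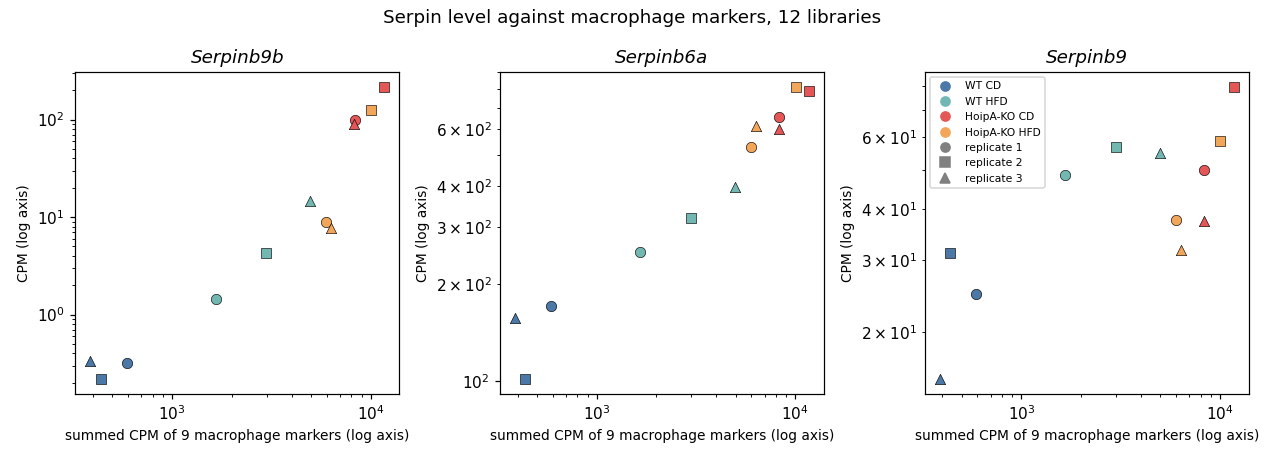
CPM of Serpinb9b, Serpinb6a and Serpinb9 (log axis) against the summed CPM of the 9 macrophage markers (log axis) in 12 libraries. Colours are groups and symbols replicates; Serpinb6a follows the sum closely (r = 0.984 over 11 libraries), Serpinb9b is steeper at the right, and Serpinb9 is loosest (r = 0.62).

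For each list here, the shares of all genes called on CD were 18.9% higher and 18.8% lower (15.6% and 19.1% over all 12 libraries). The 7 T and NK cell markers summed to 5.36 to 7.89 CPM in WT CD and 7.2 to 21.7 CPM in HoipA-KO CD. Of these, 1 of 7 was called higher on CD. The 6 neutrophil markers summed to 3.00 to 6.95 CPM in WT CD and 12.7 to 26.1 CPM in HoipA-KO CD, with 1 gene called on CD. The 5 mast cell markers summed to 30.3 to 59.2 CPM in WT CD and 59.2 to 84.4 CPM in HoipA-KO CD, 3 of 5 called (2 over all 12 libraries). The 5 dendritic cell markers summed to 13.2 to 22.9 and 15.7 to 27.1 CPM, 2 of 5 called (1 over all 12 libraries). Of 10 adipocyte markers, 9 were called lower on CD and 10 on HFD (8 and 7 over all 12 libraries). The share of all genes called lower on HFD was 7.62%, and 2.25% over all 12 libraries. The tissue thus kept the markers of fat at a reduced level (13890 to 49300 CPM in WT CD, 6086 to 9208 CPM in HoipA-KO CD).

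Among the lists of proteases examined, the papain-like cathepsins were the most abundant. They are not among the targets given above for the members, and whether any member acts on them was not tested. Of 10 papain-like cathepsins, which digest proteins in lysosomes, 5 were called higher in HoipA-KO on CD, 4 on HFD and 5 on HFD in WT, and none lower, where 18.9%, 4.2% and 9.35% of all genes were called higher. Over all 12 libraries, 1 was called on HFD. Their median log2 difference on CD was 1.78. Ctsb (2.74, SE 0.442), Ctsl (2.72, SE 0.367), Ctss (5.53, SE 0.579) and Ctsz (2.87, SE 0.362) were called on CD, with edgeR adjusted p of 0.00159, 0.000764, 0.000452 and 0.000593.

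Granzymes and perforin, the killing proteins of lymphocytes, were scarce. The 10 genes summed to 2.12 to 2.75 CPM in WT CD and 3.07 to 5.21 in HoipA-KO CD, and 6 were tested. Gzmb, the target of Serpinb9, was called on CD (2.05, SE 0.66, edgeR adjusted p = 0.0348) at 1.72, 3.96 and 1.39 CPM in HoipA-KO CD, against 0.463, 0.716 and 0.353 in WT CD. Gzmm, the target of Serpinb9b, was not (-0.28, SE 0.429, edgeR adjusted p = 0.628), nor were Gzma (-0.81, SE 0.766) and Prf1 (-0.03, SE 0.473).

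The neutrophil serine proteases Elane, Prtn3 and Ctsg summed to 3.34 to 5.85 CPM in WT CD and 1.62 to 2.38 CPM in HoipA-KO CD, and 0 of 3 were called in either genotype comparison by edgeR. In each of these comparisons 1 of 3 had an unadjusted p under 0.05, Prtn3 on CD (-1.41) and Ctsg on HFD (2.40). So did 8921 of the 18427 genes tested on CD and 5812 on HFD, so nothing is read from these counts.

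Of the 4 plasminogen activation genes, which include the PAI-2 targets Plau and Plat and the urokinase receptor Plaur, 3 were called higher on CD: Plau (1.54, SE 0.327), Plaur (3.77, SE 0.435) and Plat (1.09, SE 0.177). The share of all genes called higher on CD was 18.9%. Plaur was also called on HFD (1.25, SE 0.332, edgeR adjusted p = 0.0412), a call lost over all 12 libraries, while Serpinb2 was not called in any comparison. Of the 4 proprotein convertases, 0 were called higher. Furin, the target of Serpinb8, differed by 0.30 (SE 0.147, edgeR adjusted p = 0.135) on CD, and Pcsk6 was lower on CD (-2.96, SE 0.304) and on HFD (-2.89, SE 0.288).

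Of 7 mast cell proteases, 5 were tested and all 5 passed the test upward on CD, with a median log2 difference of 7.11, against 3 of 5 on HFD (0 over all 12 libraries, with 5 at an unadjusted p under 0.05) and 5 of 5 on HFD in WT (4 over all 12 libraries). In the 11-library fit, the shares of all genes called higher in these comparisons were 18.9%, 4.2% and 9.35%. Over all 12 libraries, 3931 of 18074 genes had an unadjusted p under 0.05 between genotypes on HFD. Tpsb2 read 2.17, 1.19 and 2.32 CPM in WT CD and 213, 148 and 195 CPM in HoipA-KO CD. The caspases Casp1 and Casp4 were called higher on CD (3.24, SE 0.336 and 1.73, SE 0.246) and on HFD in WT, and not on HFD between genotypes.

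Among 35 serpins of other clades, 27 were tested, and on CD 6 were called higher and 6 lower, near the 18.9% and 18.8% of all genes. Over all 12 libraries these counts were 4 and 7. Serpinf1 (1.89, SE 0.251) and Serping1 (1.84, SE 0.247) were called higher, while Serpinh1 (0.12, SE 0.353) and Serpina3n (-0.67, SE 0.297) were not called. Their median of -0.06 equals that over all genes to the second decimal.

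The genes most like each member across the 11 libraries, among 10272 genes with a mean of at least 10 CPM, were chosen by Pearson r of log2(CPM + 1), with no test. For Serpinb9b they were Layn (r = 0.987), Prkcb (0.982) and Creg1 (0.979), the last an abundant gene at 446 CPM on average. Like Serpinb9b, Layn was high in HoipA-KO HFD replicate 2, at 65.9 CPM against 17.4 and 15.9 CPM. For Serpinb9 they were Tmod3 (0.959), Adam10 (0.955) and Lnpk (0.952).

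For Serpinb6a the nearest genes were Galns (0.998), Shisa5 (0.995) and the cathepsin Ctsb (0.995), for Serpinb1a Shisa5, Mrtfa and P2ry14 (each 0.993). For Serpinb6b they were Pdxk (0.996), Dab2 (0.995) and Havcr2 (0.994), and for Serpinb8 Pgm2 (0.995), Csf2rb (0.994) and Zfand2a (0.992). For Serpinb2 the highest values were lower, Pde3a (0.849), Sfrp2 (0.832) and Samd4 (0.822). Among members, r was 0.943 to 0.988 within the group of Serpinb6a, Serpinb6b, Serpinb8 and Serpinb1a, and 0.653 between Serpinb9b and Serpinb9.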

How the data were processed

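Poly(A) RNA of 12 GWAT libraries was sequenced with a stranded kit. Per the labels and methods, the authors trimmed reads with Trim Galore 0.6.7, aligned with STAR 2.7.10a and estimated counts with Salmon 1.5.2, with MultiQC 1.11 for quality control. The build is GRCm38 per the labels, while the methods name a human build. The deposited values used here are estimated counts per gene, not normalised. The deposited tables of the authors' own comparisons, made with DESeq2 1.38.1 and holding fold changes, p-values and CPM, were not used. How strand entered the counting is not given in the sources used here.

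Estimated counts were rounded to whole numbers. R 4.3.3 with edgeR 4.0.16 was used: filterByExpr, TMM scaling, 1 coefficient per group, glmQLFit and glmQLFTest with a prior count of 0.125, and Benjamini-Hochberg adjustment at 0.05. The fit took 11 libraries, since the authors' comparisons left out WT CD replicate 3. The 5 comparisons were genotype within diet, diet within genotype and their interaction. Library totals of 30513446 to 60540225 counts set a floor of 3 counts at 0.0533 to 0.0996 CPM. Intervals are exact (Clopper-Pearson) and cover counting error only. Alternatives were DESeq2 1.42.0, other scalings, filters and libraries. Positions, lengths and 31-base words came from GENCODE vM21, motif windows from RefSeq. Text names all 7 members, each tested clade B gene, up to 4 genes per further list by mean CPM, and the 3 genes most like each member; genes beyond these were chosen after their values were seen. The members and lists were chosen with earlier results of these data known.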

Additional observations from a re-analysis of the deposited data

Results flagged for a closer look

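Serpinb1c had a genotype difference that was smaller on HFD than on CD, by -7.38 on the log2 scale (SE 1.48, edgeR adjusted p = 0.0314), which is a test of the difference between diets itself. On CD the difference was 8.87 and on HFD 1.49, where the edgeR adjusted p was 0.177. The value rests on 1 count in the 2 WT CD libraries of the fit, so its size depends on the prior count. Serpinb1c also passed the filter on low counts through the groups where it is high, so nothing is read from its adjusted p. Leaving out single libraries gave -9.79 to -6.42, and the adjusted p passed 0.05 without WT CD replicate 2 (0.111), WT HFD replicate 2 (0.0674) or 3 (0.0615), any HoipA-KO CD replicate (0.0614 to 0.0707), or HoipA-KO HFD replicate 1 (0.0859) or 3 (0.0896). Of the 9 macrophage markers, 5 also had a lower genotype difference on HFD than on CD by the same test, where 3.58% of all genes were called lower. The part of these markers in the result was not tested.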

How the results depend on the processing

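Low counts limit Serpinb2 and the scarce clade B genes, and 2 to 3 pools a group limit the rest. Of 99 counts of called members under the alternatives, 83 stayed within 1.5 times the value given. They include the counts for HFD against CD in HoipA-KO, which stayed at 0, and those on CD, from which nothing is read. The share is therefore no measure of how steady the other counts were. On CD, 6 of 7 members were called, with 5 to 7 across the alternatives.

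For HoipA-KO against WT on HFD (2 members called), all 12 libraries gave 0, the replicate block 1, and leaving out single libraries 0 to 2. For HFD against CD in WT (4 called), fitting only the groups compared gave 0, and leaving out single libraries 0 to 5. For the interaction (0 called), library size scaling gave 1, the DESeq2 Wald test 4, and leaving out single libraries 0 to 3. These counts include Serpinb9b, whose libraries chose it. The cause was not tested. No member was called for HFD against CD in HoipA-KO under any alternative.

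Signs turned only in differences that no setting called. For HFD against CD in HoipA-KO, library size scaling gave 0.0192 for Serpinb6a, 0.0886 for Serpinb6b and 0.076 for Serpinb1a, at least 10 counts in every library 0.018 and 0.00868 for the last 2, protein-coding genes alone 0.0094 and 0.000923, and all 12 libraries 0.00471 and only the groups compared 0.00669 for Serpinb6b. The replicate block gave -0.0233 for Serpinb1c. Leaving out single libraries gave -0.279 to 0.0856 for Serpinb6a, -0.281 to 0.358 for Serpinb6b, -0.179 to 0.189 for Serpinb1a, -0.704 to 1.05 for Serpinb2 and -0.358 to 0.554 for Serpinb1c, and -1.68 to 0.153 for Serpinb2 between genotypes on HFD. Library size scaling moved the median of all genes here from -0.0145 to 0.0901.

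Counts of genes called higher and lower that moved most were as follows. On HFD (774 and 1405), no filter gave 465 and 1110, all 12 libraries 96 and 407, DESeq2 2178 and 2232, and single libraries left out from 38 and 293 to 1655 and 2142. On CD (3491 and 3456), only the groups compared gave 2537 and 1671, and leaving out HoipA-KO CD replicate 1 or 2 gave 2866 and 2216 or 2815 and 2293. In WT (1723 and 1008), DESeq2 gave 2396 and 2155, only the groups compared 0 and 0 (4666 genes at an unadjusted p under 0.05), the replicate block 1195 and 307, and leaving out 1 library from 750 and 303 (WT CD replicate 2), 982 and 155 (WT HFD replicate 2) and 864 and 181 (WT HFD replicate 3) to 2913 and 3072 (WT CD replicate 1). For the interaction (61 and 660), all 12 libraries gave 14 and 488, DESeq2 895 and 1455, the replicate block 14 and 363, and leaving out HoipA-KO HFD replicate 3 or WT CD replicate 1 gave 0 and 1 or 1788 and 1880. Replicate numbers gave no sign of pairing: deviations of 15 same-numbered pairs correlated at -0.477 to 0.372, and those of 30 other pairs at -0.421 to 0.477. Deviations within a group depend on each other, so this cannot decide whether libraries were paired. With at least 10 counts in every library, Serpinb2 and Serpinb1c had no value.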
